A study of Mus musculus with 6 samples.

Results

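The transcription factor genes Otx2, Pou3f1, Zic2, Zic5 and Foxd3 and the growth factor gene Fgf5 were followed in total RNA from mouse embryonic stem cells (mESC). They are 6 of the 42450 genes listed in the deposited table. They were taken by name and not by a cut on their values, but with earlier results of these data known. WT cells were the parental male line E14tg2a.4, and Srrm2+/- cells were its derivative CG0630, in which a gene-trap cassette in exon 1 truncates 1 allele of Srrm2, a gene for a splicing factor of nuclear speckles. Each group had 3 replicates. All cultures were grown on gelatine with LIF, the cytokine that holds mESC in self-renewal, and were moved to serum-free medium with LIF before collection. Per the study's methods, replicates were batches frozen at different passages, the WT batches at higher passage numbers than the Srrm2+/- batches. Srrm2+/- cells come from 1 gene-trap clone, so genotype, clone and passage cannot be told apart in any comparison of the groups.

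Mouse pluripotent cells pass from a naive state, that of the inner cell mass, through a formative state and on to the primed epiblast that starts gastrulation. The homeodomain factor OTX2 and the POU domain factor POU3F1 (OCT6) come up at the start of this transition and redirect POU5F1 (OCT4) to new enhancers. Fgf5, a secreted fibroblast growth factor, is the classical marker gene of the post-implantation epiblast. The zinc finger factors ZIC2 and ZIC5 and the forkhead factor FOXD3 also work in pluripotent cells and later in neural ectoderm and neural crest.

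To show where these genes start, the sequence just before the start site was read from RefSeq promoter windows on build GRCm38.p6, which matched 4 of the 6 genes. Each run below is written from 5′ to 3′ on the strand of its gene, and bases inside annotated exons were left out. Capitals mark CG dinucleotides (CpG) and, for Otx2, the word TATAAA.
Otx2, minus strand, chr14:48667645-48667894: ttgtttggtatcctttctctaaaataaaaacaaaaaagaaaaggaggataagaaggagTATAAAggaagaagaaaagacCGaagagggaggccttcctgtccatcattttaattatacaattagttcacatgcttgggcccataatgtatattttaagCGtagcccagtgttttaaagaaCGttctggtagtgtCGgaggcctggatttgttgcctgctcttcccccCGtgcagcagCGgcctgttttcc
Fgf5, plus strand, chr5:98253934-98254183: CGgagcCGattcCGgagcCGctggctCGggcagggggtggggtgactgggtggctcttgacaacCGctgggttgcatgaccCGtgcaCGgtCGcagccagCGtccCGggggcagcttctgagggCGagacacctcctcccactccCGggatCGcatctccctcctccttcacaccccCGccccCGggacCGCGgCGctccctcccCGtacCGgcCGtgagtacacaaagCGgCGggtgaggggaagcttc
Zic5, minus strand, chr14:122465678-122465908: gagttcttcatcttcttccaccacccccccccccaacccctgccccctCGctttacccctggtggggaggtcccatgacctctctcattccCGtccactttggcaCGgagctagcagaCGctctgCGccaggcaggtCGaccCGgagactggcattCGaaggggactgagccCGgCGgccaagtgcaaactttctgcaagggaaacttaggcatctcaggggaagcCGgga
Foxd3, plus strand, chr4:99656049-99656298: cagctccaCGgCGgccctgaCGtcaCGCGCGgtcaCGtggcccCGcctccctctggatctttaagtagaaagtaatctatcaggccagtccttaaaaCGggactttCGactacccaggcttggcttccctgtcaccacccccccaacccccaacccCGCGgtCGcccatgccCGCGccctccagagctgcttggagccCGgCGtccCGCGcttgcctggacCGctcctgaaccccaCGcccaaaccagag

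The Otx2 run shown was the poorest of these in CpG. The run of 250 bases held 6 CpG, against 24 in the 250 bases of Fgf5, 21 in the 250 bases of Foxd3 and 11 in the 231 bases of Zic5. Over whole windows of 300 bases, GC content was 41.7% for this Otx2 start, 62.7% for Zic5, 65.7% for Foxd3 and 68.3% for Fgf5, and the median of all 32851 windows was 52.7%. RefSeq gives Otx2 further start sites, and the most upstream of them is shown, which lies inside the longer gene span of GENCODE release M21. The other Otx2 windows held 8, 11 and 16 CpG, the last above the 15 of the Zic5 window. On either strand, TATAAA was found in 13.6% of all windows, among them the Otx2 window shown and the Fgf5 window, where it lay outside the printed run. The OTX word TAATCC, present in 7.06% of windows, was found in 1 other Otx2 window. The octamer word ATGCAAAT (1.74% of windows) and the TCF/LEF word ATCAAAG (3.73%) were not found in any window of these 4 genes. No searched word holds another, and a match describes letters only.

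Library totals lay between 54151532 and 69933465 estimated counts, and each total of the Srrm2+/- group was above each total of the WT group. Levels are therefore given as CPM, counts scaled to a common library size with factors from the trimmed mean of M-values. Fold changes are Srrm2+/- over WT from edgeR's quasi-likelihood fit, and a gene was called at a Benjamini-Hochberg adjusted p under 0.05 over the 18905 genes tested. Every adjusted p below comes from that fit. Srrm2 itself was at 95.7 ± 3.94 CPM (SD, n = 3) in WT against 59.3 ± 3.02 CPM (SD, n = 3) in Srrm2+/- cells, as the labels say. All 10 embryonic stem cell markers were detected in both groups, and Pou5f1 was at 847 ± 16.3 CPM (SD, n = 3) in WT against 824 ± 11.7 CPM (SD, n = 3) in Srrm2+/- cells.

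The formative genes did not move as 1 group. Otx2, Pou3f1 and Fgf5 were upregulated in Srrm2+/- cells, between 2.17-fold and 5.12-fold, Zic2 and Zic5 were downregulated, by 28.0% and 18.6%, and Foxd3 did not pass the test. All 6 genes passed the filter on low counts. Of these, 3 were called higher, where 13.6% of all tested genes were called higher, and 2 were called lower, where 11.7% of all tested genes were. In either direction 25.3% of the tested genes were called, and the members were picked with earlier results known, so these shares describe them only. The libraries of the groups did not overlap for the same 5 called genes, which was so for 41.4% of all tested genes. In bulk RNA, more cells expressing a gene and more RNA per expressing cell cannot be told apart.

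**Figure D1:**
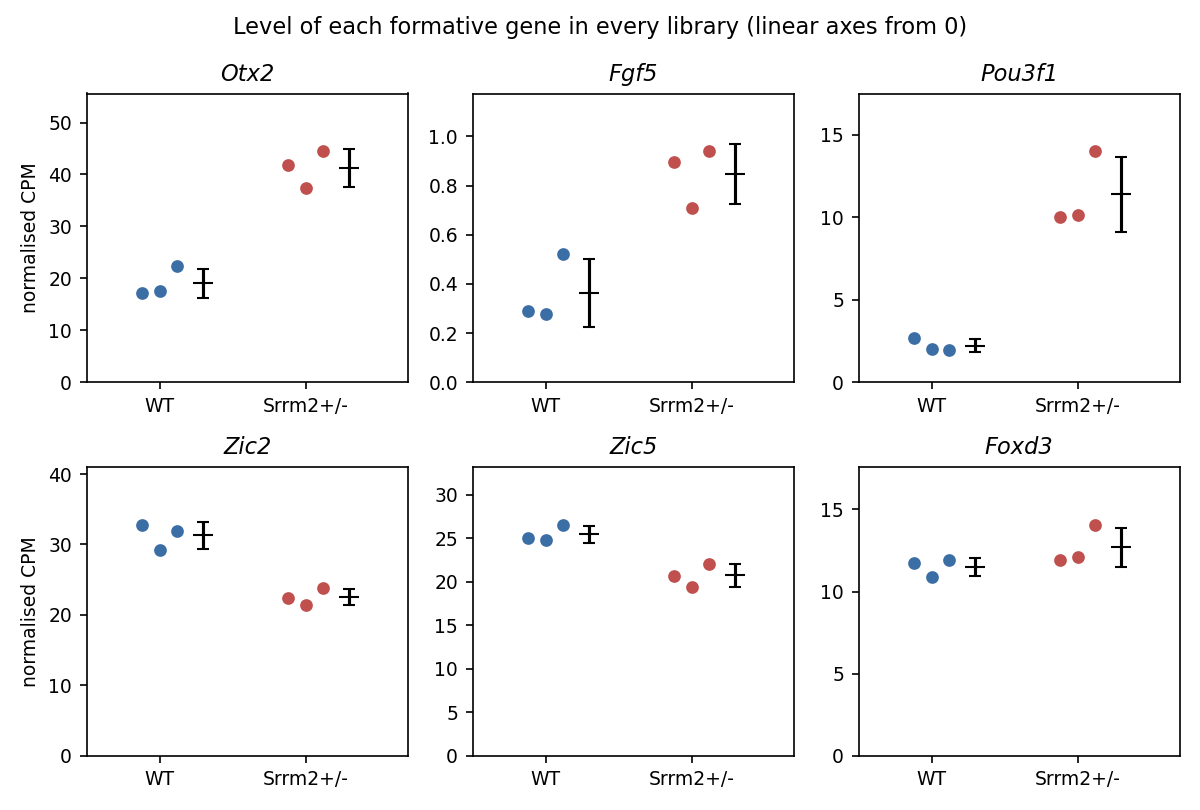
Normalised CPM of each gene in every library (points, WT blue, Srrm2+/- red), with the group mean and SD (n = 3) to the right of each group, on linear axes from 0. The Srrm2+/- libraries sit above all WT libraries for Otx2, Fgf5 and Pou3f1 and below all of them for Zic2 and Zic5, whereas the ranges overlap for Foxd3, at 10.9 to 11.9 CPM in WT against 11.9 to 14.1 CPM in Srrm2+/- cells.

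Pou3f1 showed the largest change of these genes. Its single annotated transcript lies on chromosome 4 (ENSMUSG00000090125, chr4:124656807-124660655, plus strand, GRCm38). In WT it was at 2.67, 2.02 and 1.98 CPM, from 148, 117 and 106 counts. In Srrm2+/- cells it was at 10.03, 10.15 and 14.003 CPM, from 694, 700 and 864 counts. Every Srrm2+/- library thus held several times the Pou3f1 level of any WT library, and Srrm2+/- replicate 3 stood above the other two. The mean rose from 2.22 ± 0.385 CPM (SD, n = 3) to 11.4 ± 2.26 CPM (SD, n = 3), a log2 fold change of 2.36 (SE 0.17, 95% interval 1.96 to 2.75, adjusted p = 2.48e-05). It ranked 240 of 18905 by the size of its log2 fold change. The relative spread between replicates was 17.3% in WT and 19.8% in Srrm2+/- cells, whereas counting alone would give 8.99% and 3.65%. In the Pou3f1 transcript, 8.17% of the 31-base words also occur in transcripts of other genes, mainly Gm2164, which had 0 counts in every library.

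Otx2, which encodes the homeodomain factor that directs the exit from the naive state, changed less than Pou3f1 but from a higher level. The gene lies on chromosome 14 (ENSMUSG00000021848, chr14:48657677-48673819, minus strand) with 11 annotated transcripts, whose counts are summed in the table. WT libraries held 17.2, 17.6 and 22.3 CPM, and Srrm2+/- libraries held 41.9, 37.3 and 44.5 CPM. WT replicate 3 was the highest of its group, but stayed well below the lowest Srrm2+/- library. The means were 19.0 ± 2.83 CPM (SD, n = 3) and 41.2 ± 3.61 CPM (SD, n = 3). The rise was 2.17-fold (95% interval 1.84 to 2.55), or 1.12 on the log2 scale (SE 0.10, adjusted p = 0.000101). Otx2 was measured from 957 to 1195 counts per WT library and 2575 to 2900 counts per Srrm2+/- library. The relative spread between WT replicates was 14.9%, where counting alone would give 3.08%.

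The gene Otx2os1 on the opposite strand, a long noncoding RNA that overlaps Otx2, was listed at 4, 0 and 1 counts in WT and at 9, 18 and 8 counts in Srrm2+/- cells. These counts are few beside those of Otx2, and summing them with Otx2 left its call as it was. Of the 31-base words in annotated Otx2 transcripts, 3.23% also occur in transcripts of Gm49154 or Otx2os1, so a small part of the Otx2 count can be shared. The strand setting used to count the reads is not given in the sources used here.

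Fgf5 moved with Otx2 and Pou3f1 but near the lower limit of detection. The gene lies on chromosome 5 (ENSMUSG00000029337, chr5:98254184-98277030, plus strand). It had 16, 16 and 28 counts in WT libraries and 62, 49 and 58 counts in Srrm2+/- libraries, or 0.288, 0.277 and 0.523 CPM against 0.896, 0.711 and 0.940 CPM. The groups did not overlap, and WT replicate 3 was again the highest of its group, as for Otx2. The means of 0.363 ± 0.139 CPM (SD, n = 3) and 0.849 ± 0.122 CPM (SD, n = 3) gave a log2 fold change of 1.23 (SE 0.30, 95% interval 0.53 to 1.92, adjusted p = 0.0175). Counting error alone amounts to 22.4% of a WT library's value and 13.3% of a Srrm2+/- library's value. The call was lost when WT replicate 1 (log2 fold change 1.09, adjusted p = 0.0568), WT replicate 2 (1.07, adjusted p = 0.0631), Srrm2+/- replicate 1 (1.19, adjusted p = 0.0588) or Srrm2+/- replicate 3 (1.15, adjusted p = 0.0666) was left out, while without WT replicate 3 the log2 fold change was 1.58 (adjusted p = 0.00753). Of the 31-base words of Fgf5, 1.64% occur in transcripts of other genes, among them Nrp2. Nrp2 had 4672 to 5289 counts per WT library and 3511 to 3724 per Srrm2+/- library. The part of shared reads in the Fgf5 counts was not tested.

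Zic2 fell in Srrm2+/- cells. Zic2 and Zic5 are neighbours on chromosome 14, on opposite strands, with Zic2 at chr14:122475435-122479852 (ENSMUSG00000061524, plus strand) and Zic5 at chr14:122456795-122465677 (ENSMUSG00000041703, minus strand). Zic2 was at 32.8, 29.1 and 31.9 CPM in WT against 22.4, 21.4 and 23.8 CPM in Srrm2+/- cells. All Srrm2+/- libraries were below all WT libraries, with little spread in either group. The mean went from 31.3 ± 1.90 CPM (SD, n = 3) to 22.5 ± 1.18 CPM (SD, n = 3), a log2 fold change of -0.47 (SE 0.06, 95% interval -0.62 to -0.33, adjusted p = 0.000708). Raw Zic2 counts were 1685 to 1820 per WT library and 1467 to 1548 per Srrm2+/- library, so the fall was present before scaling although the Srrm2+/- libraries were deeper.

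Zic5 fell less. Its levels were 25.1, 24.8 and 26.5 CPM in WT against 20.7, 19.4 and 22.03 CPM in Srrm2+/- cells, which did not overlap. The means were 25.5 ± 0.959 CPM (SD, n = 3) and 20.7 ± 1.30 CPM (SD, n = 3). The log2 fold change was -0.30 (SE 0.06, 95% interval -0.43 to -0.16, adjusted p = 0.00692), and Zic5 remained called whichever library was left out, at -0.34 to -0.25. In raw counts Zic5 did not separate the groups, at 1391 to 1431 in WT and 1339 to 1433 in Srrm2+/- libraries, so its fall rests on the scaling for depth. Of its 31-base words, 10.9% occur in other transcripts, mainly those of Gm12241, which had 0 counts in all 6 libraries.

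Foxd3, whose factor keeps mESC self-renewing and later specifies neural crest, was near its WT level in Srrm2+/- cells. The gene is on chromosome 4 (ENSMUSG00000067261, chr4:99656299-99658622, plus strand). WT libraries were at 11.7, 10.9 and 11.9 CPM and Srrm2+/- libraries at 11.9, 12.1 and 14.1 CPM. Srrm2+/- replicate 3 stood above the other 5 libraries. With means of 11.5 ± 0.544 CPM (SD, n = 3) and 12.7 ± 1.20 CPM (SD, n = 3), the log2 fold change was 0.14 (SE 0.08, adjusted p = 0.264). Its 95% interval of -0.05 to 0.33 leaves room for a rise of up to 1.25-fold and a fall to 0.968 of the WT level. Foxd3 was measured from 630 to 868 counts per library. In its transcript, 5.54% of the 31-base words also occur in transcripts of other genes, most often Gm23366, which had 0 counts in every library.

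Ratios within a library do not depend on how the libraries are scaled, and they were formed for 4 pairs of genes, of which Pou3f1 to Otx2 was chosen after the data were seen. With 3 against 3 libraries, an exact permutation test (two-sided) cannot give a p below 0.1, nor below 0.133 once adjusted over these 4 ratios, of which 3 reached the smallest value. The count ratio of Otx2 to Zic2 crossed 1. Their median transcript lengths differ (1033 bases for Otx2, 1602.5 for Zic2), so this crossing does not tell which RNA was more abundant. Otx2 had 0.526, 0.603 and 0.700 counts for each Zic2 count in WT, and 1.87, 1.74 and 1.87 in Srrm2+/- cells, a difference of 1.59 on the log2 scale (exact permutation p = 0.1, adjusted 0.133). Each WT library thus had more Zic2 than Otx2 counts, and each Srrm2+/- library the reverse.

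The Zic5 to Zic2 ratio was 0.764, 0.849 and 0.833 in WT and 0.926, 0.906 and 0.926 in Srrm2+/- cells. The ranges did not overlap, and the ratio was higher in Srrm2+/- cells by 0.17 on the log2 scale (exact permutation p = 0.1, adjusted 0.133). In these libraries Zic2 fell more than its neighbour Zic5, a difference that so few libraries cannot settle by this test. The Pou3f1 to Otx2 ratio was 0.155, 0.115 and 0.0887 in WT and 0.239, 0.272 and 0.315 in Srrm2+/- cells, so Pou3f1 rose more than Otx2 by 1.23 on the log2 scale (exact permutation p = 0.1, adjusted 0.133). For Fgf5 to Otx2 the ranges overlapped, at 0.0157 to 0.0234 in WT and 0.0190 to 0.0214 in Srrm2+/- cells, and the difference of 0.16 on the log2 scale was smaller than the WT spread of 0.31 (exact permutation p = 0.4, adjusted 0.4).

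**Figure D2:**
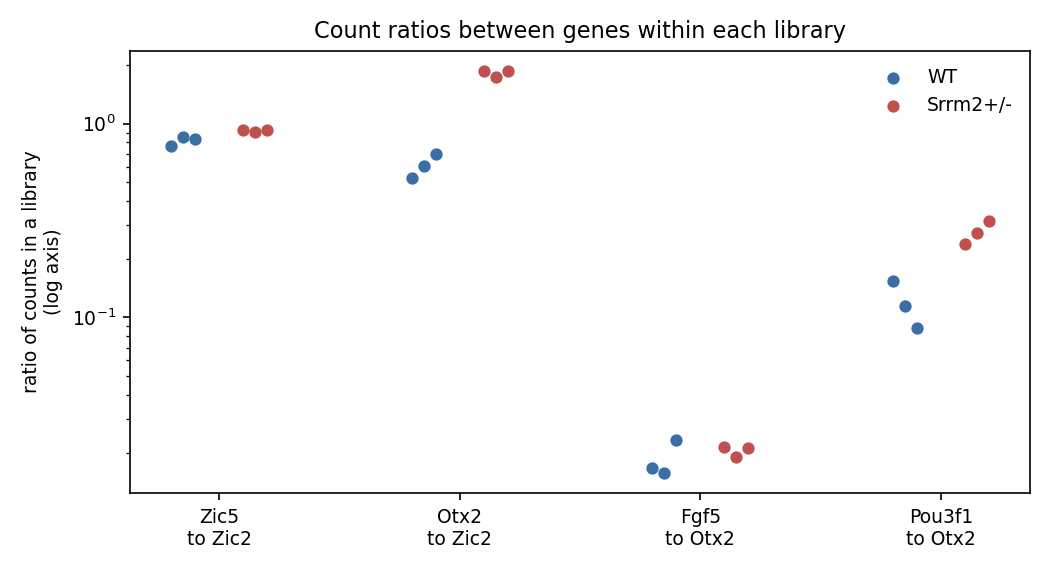
Ratio of the counts of 2 genes within each library (log axis, WT blue, Srrm2+/- red, 3 libraries each). The Otx2 to Zic2 ratio crosses 1, from at most 0.700 in WT to at least 1.74 in Srrm2+/- cells, whereas the Fgf5 to Otx2 ratios of the groups overlap.

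To compare levels between genes, CPM were divided by the median length of each gene's annotated transcripts in kilobases. By level per kilobase, Zic2 (19.5 ± 1.18, SD, n = 3) and Otx2 (18.4 ± 2.74, SD, n = 3) led in WT, and their ranges overlapped. Below them, with no overlap between neighbours in the order, were Zic5 at 9.30, Foxd3 at 4.95, Pou3f1 at 0.578 and Fgf5 at 0.234 CPM per kilobase. In Srrm2+/- cells Otx2 came alone at the top at 39.9 ± 3.50 CPM per kilobase (SD, n = 3), followed by Zic2 at 14.1 ± 0.736 (SD, n = 3), Zic5 at 7.57, Foxd3 at 5.46, Pou3f1 at 2.96 and Fgf5 at 0.547. No neighbours in that order overlapped. Pou3f1 and Fgf5 remained the lowest of the 6 genes in both groups. The upper part of the order depends on the length used. With the summed length of all exons of a gene, Otx2 fell to the fourth place in WT at 4.51 CPM per kilobase, below Zic5 (5.21) and Foxd3 (4.95) with overlapping ranges, but still led in Srrm2+/- cells at 9.77.

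Most relatives of these genes were not called, as was so for most tested genes, of which 25.3% were called. Several relatives were too low to be tested or were measured from few counts with a wide error. Of those of Zic2 and Zic5, Zic1 averaged 0.283 ± 0.104 CPM in WT against 0.387 ± 0.0927 CPM in Srrm2+/- cells (SD, n = 3; log2 fold change 0.45, SE 0.38, adjusted p = 0.435), and Zic4 was too low to be tested. Of the POU genes, 13 of 15 were tested, and besides Pou3f1 only Pou2f2 was called. Thus 7.69% of the tested POU genes were called higher and 7.69% lower, beside 13.6% and 11.7% of all tested genes. Pou2f2 had a log2 fold change of -0.89 (SE 0.27, adjusted p = 0.0404) at 1.58 ± 0.322 CPM in WT (SD, n = 3). The other brain-type genes of the Pou3f1 class were near or at the limit of the test. Their log2 fold changes were -1.49 for Pou3f3 (SE 1.32, adjusted p = 0.466), -0.23 for Pou3f2 (SE 0.44, adjusted p = 0.76) and 0.54 for Pou3f4 (SE 0.42, adjusted p = 0.409). Pou5f1, the pluripotency factor, had a log2 fold change of -0.04 (adjusted p = 0.485) and made up 96.5 ± 0.104% of the family level per kilobase in WT and 96.3 ± 0.0692% in Srrm2+/- cells (SD, n = 3). Pou3f1 went from 0.0390% to 0.205% of that level. These shares rest on median transcript lengths, which were 592 bases for Pou5f1 and 3849 for Pou3f1. Of the relatives of Otx2, Crx was tested and not called (0.02, adjusted p = 0.977), and Otx1 was too low to be tested, at 0.0660 CPM in WT against 0.0295 CPM in Srrm2+/- cells. Foxd1, Foxd2 and Foxd4 were also below the filter. Foxd2 had 0 counts in all WT libraries and 2, 3 and 0 counts in Srrm2+/- libraries. Foxd4 had 0, 0 and 2 counts in WT libraries and 0 in all Srrm2+/- libraries.

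The genes of the fibroblast growth factor family moved in both directions, with 13 of 22 tested. Among the tested genes, 3 were called higher and 4 lower, beside 13.6% and 11.7% of all tested genes. Fgf4, the ligand through which mESC signal to themselves, fell from 230 ± 5.06 to 170 ± 8.85 CPM (SD, n = 3; log2 fold change -0.44, SE 0.05, adjusted p = 0.000200), while Fgf5 rose. Both Fgf14 (1.74, SE 0.42, adjusted p = 0.0154) and Fgf13 (0.81, SE 0.22, adjusted p = 0.0274), which encode intracellular family members, were called higher. Fgf5 was the only other family gene called higher. Fgf10 (-1.20), Fgf1 (-0.59) and Fgf17 (-0.47) were called lower. Fgf8, made by the epiblast and primitive streak, had a log2 fold change of 1.15 (SE 0.60, adjusted p = 0.204). By level per kilobase Fgf5 held 0.151 ± 0.0593% of the 22 listed family genes in WT and 0.471 ± 0.0701% in Srrm2+/- cells (SD, n = 3), and Fgf4 held 86.8% and 85.3%. Both shares also rest on median transcript lengths.

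The list of formative and epiblast partners held 22 further genes, all of them tested. Of these, 17 were called higher (77.3%) and 1 lower (4.55%), beside 13.6% and 11.7% of all tested genes. The median log2 fold change was 0.49 beside -0.00254 over all tested genes. The list was chosen with earlier results of these data known, so these shares describe it only. The largest rises were those of Sall2 (1.63, SE 0.13, adjusted p = 4.29e-05), a zinc finger factor, and of Pim2 (1.51, SE 0.09, adjusted p = 7.47e-06), a kinase. The tight junction gene Cldn6 rose from 2.28 ± 0.770 to 5.94 ± 1.09 CPM (SD, n = 3; log2 fold change 1.38). The DNA methyltransferase genes Dnmt3a (0.85) and Dnmt3b (0.95) rose with their cofactor Dnmt3l (0.66), Dnmt3b from 122 ± 8.25 to 237 ± 33.1 CPM (SD, n = 3). Lef1, a nuclear partner of beta-catenin, and Grhl2, an epithelial factor that opens formative enhancers, had log2 fold changes of 0.93 and 0.89. Nodal, the ligand that maintains epiblast identity, was the gene called lower (-0.36, SE 0.06, adjusted p = 0.00281). Etv5 (-0.02), Wnt8a (0.25), Tcf7l1 (0.30) and Sox3 (0.72) did not pass the test, with adjusted p between 0.135 and 0.825.

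**Figure D3:**
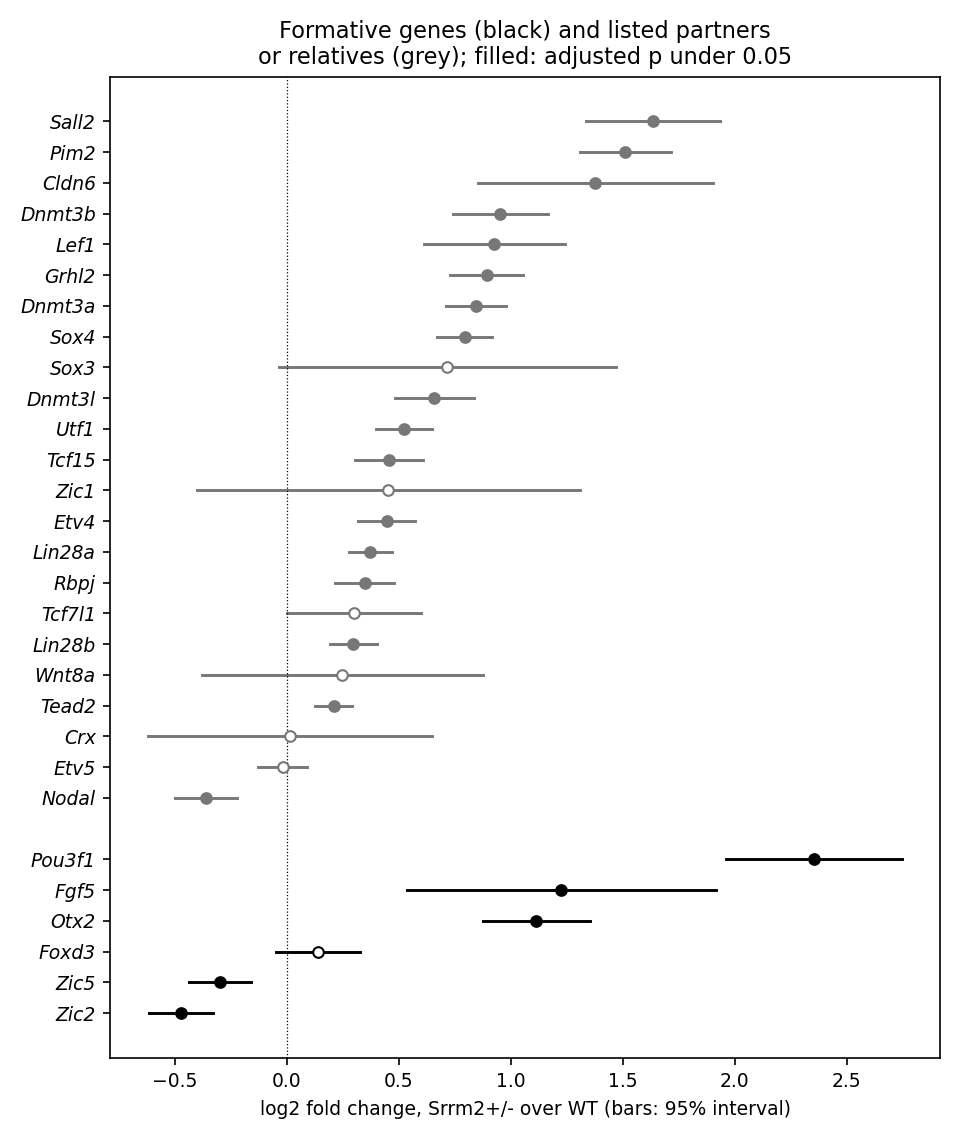
Log2 fold change of Srrm2+/- over WT with its 95% interval for the formative genes (black) and for their listed partners with Zic1 and Crx (grey), filled where the adjusted p is under 0.05. The formative genes run from -0.47 for Zic2 to 2.36 for Pou3f1, and the grey genes drawn here run from -0.36 for Nodal to 1.63 for Sall2.

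In contrast, naive factors were mostly downregulated, with 12 of 14 called lower (85.7%, beside 11.7% of all tested genes) and 1 called higher. Their median log2 fold change was -0.60, and this list was also chosen with earlier results known. The largest fall was that of Prdm14 (-1.02, SE 0.08, adjusted p = 2.60e-05), which represses Dnmt3b and FGF signalling, followed by Tfcp2l1 (-0.84) and Klf4 (-0.82). Dppa3, a maternal factor that protects methylated DNA marks, was the exception at 0.71 (SE 0.08, adjusted p = 0.000253), and Klf5 did not pass the test (-0.15, adjusted p = 0.159). Of the primed and primitive streak genes, which come up after the formative stage, 7 of 12 were tested. Among these, 3 were called higher (42.9%, beside 13.6% of all tested genes) and the other 4 did not pass the test. The log2 fold changes of these 4 went both ways. They were negative for Gsc (-0.998, adjusted p = 0.141) and Cdx1 (-0.86, adjusted p = 0.0955). For Fgf8 (1.15, adjusted p = 0.204) and Mixl1 (0.32, adjusted p = 0.745) they were positive. The libraries of the groups did not overlap for Cdx1 and Fgf8, which was so for 41.4% of all tested genes. Those called were Wnt3 (2.03, adjusted p = 0.00383), T (1.89, adjusted p = 0.000513) and Eomes (0.79, adjusted p = 0.0387), all at low levels, with T at 0.886 ± 0.267 CPM in WT against 3.29 ± 0.531 CPM in Srrm2+/- cells (SD, n = 3).

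Markers of other cell types moved with the genotype in part, and their part in the changes of the formative genes was not tested. Beside the counts for each list below, 13.6% of all tested genes were called higher and 11.7% lower. Summed over the 8 fibroblast genes, the level was 3.47 to 3.68 CPM in WT against 6.99 to 10.9 CPM in Srrm2+/- cells. Of 6 fibroblast genes tested 4 were called higher, led by Col1a2 (3.89), whereas Dcn was at 0 in all WT libraries. The trophectoderm list summed to 93.7 to 99.4 CPM in WT against 291 to 322 CPM in Srrm2+/- cells. This sum was carried by the keratin genes Krt8 (3.85) and Krt18 (3.79), while Tfap2c (-0.71) and Tead4 (-0.49) were called lower and Cdx2, a defining trophectoderm factor, was at 0 in all WT libraries and at 0.155 CPM in Srrm2+/- cells.

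Neural markers, of interest because Zic2, Zic5 and Otx2 are also used in the neural plate, summed to 95.1 to 98.2 CPM in WT against 139 to 147 CPM in Srrm2+/- cells. The higher sum was carried by Nes, an intermediate filament gene, which went from 13.2 ± 1.73 to 83.6 ± 4.85 CPM (SD, n = 3). Of 5 tested genes, Nes (2.67) and Neurod1 (0.42) were called higher and Tubb3 (-0.76) and Pax6 (-0.30) lower. Sox1, the defining gene of early neural progenitors, was at 0.801 and 0.995 CPM (0.31, adjusted p = 0.423). Neurog2 had 0 counts in all WT libraries and 0, 0 and 1 counts in Srrm2+/- libraries, and Hesx1 was at 0 in all libraries. Neural crest genes, where Foxd3 acts later, summed to 9.24 to 9.51 CPM and 17.4 to 17.5 CPM. Here Ets1 carried the higher sum, from 1.05 ± 0.227 to 9.08 ± 0.352 CPM (SD, n = 3). Of the 8 tested, Ets1 (3.10) and Twist1 (1.12) were called higher and Ngfr (-0.60) lower. Sox10, which defines neural crest, was too low to be tested, and Pax7 was at 0 in all Srrm2+/- libraries. Primitive endoderm genes summed to 50.3 to 61.9 CPM in WT against 35.8 to 39.4 CPM in Srrm2+/- cells, with Dab2 (1.34) called higher, Lama1 (-0.64) lower and Gata4 and Gata6 not called. The 10 embryonic stem cell markers summed to 5638 to 5820 CPM in WT against 5133 to 5224 CPM in Srrm2+/- cells, with 2 called higher and 5 lower.

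Genes that start within 500 kb of the formative genes were examined on GENCODE release M21 coordinates. Of 43 tested neighbours, 2 were called higher and 6 lower, together 18.6%, beside 25.3% of all tested genes. For Fgf5 the single tested neighbour in the window was Antxr2, which encodes an anthrax toxin receptor and starts 223.141 kb away. It was low in both groups, at 0.190 ± 0.0689 and 0.844 ± 0.128 CPM (SD, n = 3), and rose by 2.13 on the log2 scale (SE 0.32, adjusted p = 0.00155), as Fgf5 did. Next to Pou3f1, Utp11 at a distance of 36.8 kb had a log2 fold change of 0.04 (adjusted p = 0.629). Fhl3, a LIM domain gene that starts 43.9 kb from Pou3f1 and is named because it was the 1 called gene of 20 tested in that window, rose from 2.13 ± 0.311 to 5.49 ± 0.493 CPM (SD, n = 3; log2 fold change 1.37, adjusted p = 0.000187). The genes nearest to Otx2 were Tmem260 (0.40, adjusted p = 0.130) and Ap5m1 (-0.22, adjusted p = 0.0245), neither of which was called higher.

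Around Zic2 and Zic5, the noncoding gene 2610035F20Rik, whose start lies 0.236 kb from that of Zic2, had a log2 fold change of -0.12 (SE 0.12, adjusted p = 0.525) at 2.90 ± 0.129 CPM in WT (SD, n = 3). Pcca, 58.9 kb from Zic2, was called lower (-0.32, SE 0.08, adjusted p = 0.0164), and Clybl on the side of Zic5 was not (-0.05, adjusted p = 0.766). Beside Foxd3, the gene Gm12688 starts 1.316 kb away and had a log2 fold change of -0.42 (SE 0.19, adjusted p = 0.143). The long noncoding RNA gene Gm12690, 86.8 kb from Foxd3 and singled out after its values were seen, fell from 2.73 ± 0.540 to 0.456 ± 0.135 CPM (SD, n = 3; log2 fold change -2.57, SE 0.26, adjusted p = 0.000144), while Foxd3 itself was not called. Alg6 (-0.20, adjusted p = 0.0395), Timm8a2 (-1.15, adjusted p = 0.00346) and Naa30 (-0.15, adjusted p = 0.0331) were the further called neighbours. The count of 8 called neighbours was 5 without WT replicate 1, Srrm2+/- replicate 1 or Srrm2+/- replicate 3, and 4 without Srrm2+/- replicate 2.

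**Figure D4:**
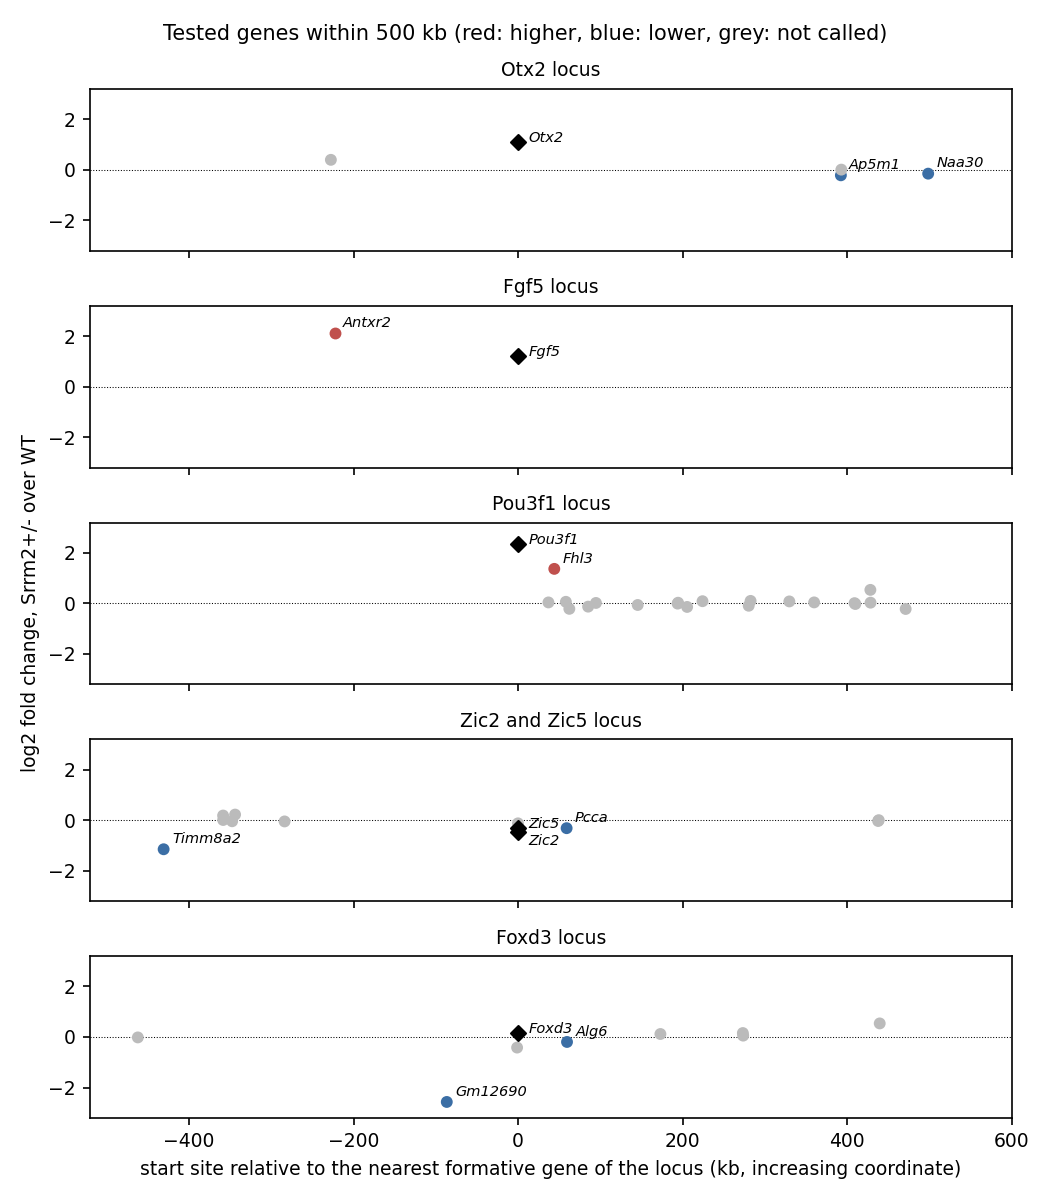
Log2 fold change of tested genes by the distance of their start sites from the nearest formative gene of the locus (kb, in the direction of increasing coordinate), with called genes in red (higher) or blue (lower), genes not called in grey and the formative genes as black diamonds. Of 43 neighbours, 8 are coloured, with Antxr2 the highest at 2.13 and Gm12690 the lowest at -2.57.

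The patterns over the 6 libraries were also set against those of other genes, as a description. For each formative gene, log2 CPM was centred on its mean, and the root mean square difference from every tested gene whose mean log2 CPM reached 1 (11961 genes for Fgf5 and 11960 for the others) was taken. Zxdb (0.0422), Nsmf (0.0551) and Nfkb2 (0.0726) were closest to Otx2, and like Otx2 each rose by 1.06 to 1.12 on the log2 scale. For Fgf5 the closest were Nlrp9b (0.125), Nsmf (0.155) and Tspan7 (0.165), so that Nsmf was near both genes. Fgf5 itself had a mean log2 CPM of -0.792, below the cut of 1 set for the other genes. A prior count of 2 was used for log2 CPM, which damps changes at counts as few as those of Fgf5. The genes closest to Pou3f1 were Pkdcc (0.153), Zfp608 (0.171) and Has2 (0.178), with Pkdcc at 2.39 ± 0.299 CPM in WT against 12.2 ± 0.465 CPM in Srrm2+/- cells (SD, n = 3), levels near those of Pou3f1. Nfe2l3 (0.0276), Shld1 (0.0360) and Pole4 (0.0397) were closest to Zic2. For Zic5 they were Slc27a2 (0.0217), Slc39a4 (0.0248) and Gpd1l (0.0299), and for Foxd3 they were Kif20a (0.0184), Ing1 (0.0343) and Polr1b (0.0352). Among the formative genes themselves, Zic2 and Zic5 were the closest pair (0.0994), followed by Otx2 and Fgf5 (0.168), and Pou3f1 and Zic2 lay farthest apart (1.41).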

How the data were processed

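Estimated counts per gene for 6 total RNA libraries, 3 per group, were used as deposited. The authors had pseudo-aligned reads with Kallisto 0.46.1 to the GENCODE release M24 transcriptome (build GRCm38) and deposited expected counts without normalization. Kallisto divides reads between transcripts that share sequence. Counts were rounded here. Samples were grouped by genotype from their titles, and no table column was left unmapped. Symbols and coordinates came from GENCODE release M21 (42156 of 42450 identifiers matched). Genes past filterByExpr (minimum count 10, total 15) were tested with edgeR 4.0.16 (TMM, glmQLFit, glmQLFTest, two-sided) on R 4.3.3, and p-values were adjusted by Benjamini-Hochberg over 18905 genes. The SE is the log2 fold change divided by the square root of F. The library pairs differed beyond sampling noise. P-values measure the spread between these batches of 1 line per genotype.

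The members, the gene lists and the tests were chosen with earlier results of these data known. Named genes were the members, their families, called genes of each list, the nearest tested genes on each side and the 3 genes most alike. Alternatives were RLE and upper quartile scaling, DESeq2 1.42.0, limma voom 3.58.1, other filters, a replicate block, libraries left out, overlapping genes summed and other windows, lengths and thresholds. Scripts were tested on simulated data. The result for 1 gene of a listed family is not reported here. Deviations from the group means did not pair libraries by replicate number (correlations -0.0407, 0.0986 and 0.0354).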

Additional observations from a re-analysis of the deposited data

How the results depend on the processing

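Pou3f1, Otx2, Zic2 and Zic5 kept their direction and their calls, and Foxd3 stayed uncalled (0.06 to 0.18 on the log2 scale, adjusted p 0.204 to 0.661), under all alternatives in which each was tested. Without 1 library the log2 fold changes were 2.18 to 2.51 for Pou3f1, 1.05 to 1.245 for Otx2, -0.52 to -0.44 for Zic2 and -0.34 to -0.25 for Zic5. Fgf5 (1.23, adjusted p = 0.0175) did not pass a threshold of 0.01, was not tested under the filter of 1 CPM, and ranged from 1.07 to 1.58 without 1 library, with adjusted p up to 0.0666, where fewer samples were fitted. At a threshold of 0.01, 2779 genes were called instead of 4781 (3515 to 4122 without 1 library). The 8 called neighbours became 4 at that threshold, 4 within 100 kb, 14 within 1000 kb and 4 to 7 without 1 library. Of 12 ranks by level per kilobase, 7 were kept with the summed exon length and 10 with the longest transcript. Partners called (18) and naive factors called (13 to 14) were stable. RLE and upper quartile scaling moved the median log2 fold change of all genes by at most 0.0046, and no other alternative by over 0.0067.

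The replicate numbers do not mark shared batches in the labels, and same-numbered samples did not correlate by over 0.1. With the replicate number as a block, the log2 fold changes were 1.12 for Otx2 (adjusted p = 0.000212), 1.26 for Fgf5 (0.0253), 2.35 for Pou3f1 (0.000407), -0.47 for Zic2 (0.00193), -0.30 for Zic5 (0.00991) and 0.14 for Foxd3 (0.238), so no call of these genes changed. The block called 4166 genes and 6 neighbours, and paired ratios cannot give a p below 0.25. Fgf5 is limited by depth, at 16 to 62 counts per library.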
